A study of Homo sapiens with 4 samples.

Results

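The desmosome genes comprised the plaque genes DSP, JUP, PKP1, PKP2 and PKP3 and the desmosomal cadherin genes DSC2, DSC3, DSG1, DSG2 and DSG3. These 10 members of the 20098 protein-coding genes in the annotation were chosen by name and not by a measured value. Earlier results of these data were known when the choice was made. An accessible region was assigned to a member if it overlapped the gene or lay within 100 kb of its transcription start site (TSS). Of 60886 accessible regions in the data, 59 were assigned in this way. Of these, 18 lay in the windows of the cadherin genes, which neighbour each other in 18q12 and were treated as a single locus.

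ATAC-seq, in which the Tn5 transposase cuts and tags open DNA and a pile-up of its cuts (a peak) marks accessible chromatin, was applied to 2 replicates of parental MCF10A cells and 2 of G12V cells. MCF10A is a line of human breast epithelium that is immortal but not transformed, and G12V is the same line after a viral vector had delivered the HRAS oncogene with the G12V change, followed by hygromycin selection. A GFP vector was delivered with it, to follow the efficiency of transduction. Both were grown in the same medium with EGF, insulin, hydrocortisone, cholera toxin and horse serum and used at low passage, and the study's methods call the replicates biological. The study thus holds a single parental line and a single transduced derivative, and the sources used here do not say whether G12V was a pool or a clone.

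Desmosomes are spot-like junctions that tie the keratin filaments of neighbouring epithelial cells together. Desmogleins and desmocollins, both cadherins, meet in the gap between the cells; inside the membrane their tails bind plakoglobin (JUP) and the plakophilins, and desmoplakin (DSP) links this plaque to keratin. In mammary epithelium desmosomes hold both the basal and the luminal layer together, and weakening of these junctions is a familiar part of epithelial-to-mesenchymal transition.

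The 6 stretches of the human genome that carry the main results are written here 5′ to 3′ from GRCh37 (hg19), the build of the peak lists. The first pair are 200 bp windows inside the introns of PKP1 that had a peak in both MCF10A libraries and in neither G12V library, on the plus strand at chr1:201280679-201280878 and chr1:201265214-201265413; the capitals in the second mark an AP-1 match, TGANTCA, and the first holds no match. The DSP window, at chr6:7505768-7505967 on the plus strand, is from an intergenic region with a peak in every library, and its capitals mark first an AP-1 match overlapping a TEAD match (GGAATG, here on the opposite strand) and then a p53 family match that contains a grainyhead match (AACCNGTT, opposite strand).
PKP1 intron, 28.1 kb downstream of the TSS: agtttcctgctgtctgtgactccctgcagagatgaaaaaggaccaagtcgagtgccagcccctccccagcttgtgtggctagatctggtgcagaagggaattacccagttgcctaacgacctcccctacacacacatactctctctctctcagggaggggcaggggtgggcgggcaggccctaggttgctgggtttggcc
PKP1 intron, 12.7 kb downstream of the TSS: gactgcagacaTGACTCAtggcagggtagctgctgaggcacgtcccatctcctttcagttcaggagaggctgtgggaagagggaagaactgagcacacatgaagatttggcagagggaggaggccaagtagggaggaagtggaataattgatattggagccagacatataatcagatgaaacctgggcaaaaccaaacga
DSP, 36.0 kb upstream of the TSS: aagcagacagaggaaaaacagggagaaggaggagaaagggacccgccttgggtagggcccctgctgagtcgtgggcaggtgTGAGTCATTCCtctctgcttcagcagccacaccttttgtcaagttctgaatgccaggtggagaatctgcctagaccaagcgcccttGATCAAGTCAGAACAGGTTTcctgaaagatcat

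The next are the 200 bp before the DSC3 gene, at chr18:28622782-28622981 on the minus strand, which lay inside a strong peak found in a single MCF10A library. GC made up 66.0% of this stretch. The last pair are the 200 bp before DSG1 (chr18:28897923-28898122, plus strand) and DSG3 (chr18:29027504-29027703, plus strand), shown because the capitals mark a run of 20 bases that these neighbouring genes share.
DSC3, upstream: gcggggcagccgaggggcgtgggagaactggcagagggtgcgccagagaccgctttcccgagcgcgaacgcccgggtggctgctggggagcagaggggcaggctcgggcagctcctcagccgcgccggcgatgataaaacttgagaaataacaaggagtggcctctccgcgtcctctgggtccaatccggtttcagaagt
DSG1, upstream: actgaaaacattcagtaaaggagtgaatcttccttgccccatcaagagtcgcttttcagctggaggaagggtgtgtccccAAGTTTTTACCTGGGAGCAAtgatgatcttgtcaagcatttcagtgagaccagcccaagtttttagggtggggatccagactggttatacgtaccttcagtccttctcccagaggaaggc
DSG3, upstream: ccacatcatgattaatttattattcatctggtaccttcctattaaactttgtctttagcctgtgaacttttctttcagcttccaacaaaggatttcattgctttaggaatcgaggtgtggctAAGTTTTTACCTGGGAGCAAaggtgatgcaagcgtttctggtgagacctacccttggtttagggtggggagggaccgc

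The lengths of the lists differed more between replicates than between cell types. They held 12888 and 34463 peaks on the autosomes and X in MCF10A replicates 1 and 2, and 14042 and 46673 in G12V replicates 1 and 2; values for the libraries are given in this order throughout. The reads behind each list are unknown, so the list length stands in for depth, and absence from a list means only that a locus did not pass the authors' peak threshold. The score of a peak is the authors' MACS score, and it was used as a percentile within its own list, where 100 is the strongest peak. Of the epithelial marker genes KRT5, KRT14, KRT8, KRT18, CDH1 and EPCAM, only KRT8 and EPCAM had a promoter peak, both in MCF10A replicate 2 alone, so promoter peaks did not mark the epithelial label well. Of the markers of blood and endothelium, 4 of 5 were matched in the annotation and 0 had a promoter peak. The lists hold no measure of the HRAS transgene.

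Desmosome genes took a smaller part of the peaks in both G12V libraries than in either MCF10A library. The peaks in or within 100 kb of the members numbered 18, 39, 8 and 36. Per 1000 peaks of the library this was 1.4, 1.13, 0.570 and 0.771, so the shares of the cell types did not overlap although each held a short and a long list. The mean was 0.671 ± 0.143 peaks per 1000 for the G12V libraries and 1.26 ± 0.187 for the MCF10A libraries (SD, n = 2 each), a difference of -0.594 (exact two-sided permutation test, p = 0.333). With 2 libraries against 2 the smallest p possible is 0.33, so no share in this data set could pass 0.05. The p gives only the rank of this grouping among all possible groupings of these libraries. Without PKP1, the gene with the most regions, the shares were 1.01, 0.87, 0.427 and 0.643 (difference -0.405, exact permutation p = 0.333). In a bulk assay, fewer cells with an open locus cannot be told apart from a locus that is less open in every cell.

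By gene, the share was lower in both G12V libraries than in both MCF10A libraries for DSC2, DSC3, PKP1, PKP2, PKP3 and JUP, which is 6 of 10 members. Among all coding genes 17.7% had this order. The reverse order was seen for 0 members and for 10.5% of coding genes, and DSP, DSG1, DSG2 and DSG3 overlapped between the cell types. DSC2 and DSC3 share much of their windows, as do DSG2 and DSG3, so these genes are not independent of each other.

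**Figure D1:**
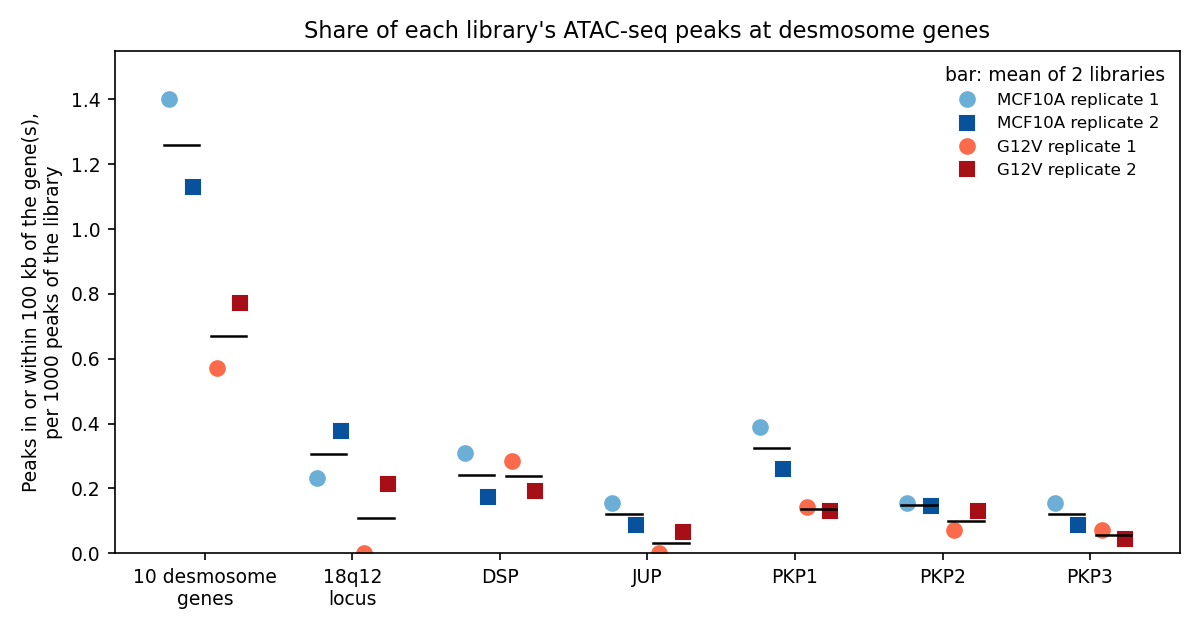
Peaks in or within 100 kb of the 10 desmosome genes, of the 18q12 locus and of each plaque gene, per 1000 peaks of the library (y axis), with a point for each library and a bar at the mean of each cell type. For all 10 genes the MCF10A libraries sit at 1.4 and 1.13 and the G12V libraries at 0.570 and 0.771, whereas the points for DSP overlap.

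By region, 5 sites of the members were lost in G12V and 0 were gained. A region was called gained if both G12V libraries and no MCF10A library had a peak in it, lost if the reverse held, and shared if every library had a peak. Gained regions numbered 0 of 59, against 3.2% of all regions. Lost regions numbered 5, or 8.47%, against 2.14% of all regions, and shared regions 7, or 11.9%, against 8.36%. A further 11 (18.6%) were found in the replicate 2 libraries alone, where the background was 16.3%, and 34 (57.6%) in a single library, where it was 56.4%. Regions only in MCF10A replicate 2 numbered 14 (23.7%, background 15.8%), and those only in G12V replicate 2, the longest list, numbered 15 (25.4%, background 34.6%). On the wider count, 23 regions (39.0%) had a peak in either MCF10A library and in no G12V library, against 20.8% of all regions, and 16 (27.1%) had the reverse, against 40.9%. These counts depend on the lists: without G12V replicate 1, gained regions numbered 15 and lost ones 5, and lost regions numbered 19 without MCF10A replicate 1, 9 without MCF10A replicate 2, 1 with the better-scoring 50% of each list and 2 with lists of equal length. With lists of equal length 5.19% of all regions were lost. For the left-out libraries and the better-scoring 50% no share of all regions was computed. No test was run on the shares in this paragraph, because the regions of a gene are not replicates of a cell type.

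All 5 lost regions were distal, that is, outside the promoters of the members. A promoter reached from 1000 bp before a TSS to 500 bp after it. Of the 59 regions, 50 (84.7%) were distal, and some of these lay at promoters of other genes, such as SNRNP48. Members with at least 1 lost region were PKP1, PKP3, DSC2 and DSC3, the last pair through the same region; 10% of coding genes had one. At least 1 gained region was seen for 0 members and 16% of coding genes.

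DSP, the plakin that joins the plaque to keratin filaments, had a peak in every library at 4 of its 8 distal regions. DSP (ENSG00000096696; chr6:7541571-7586947, plus strand) had 9 regions and 4, 6, 4 and 9 peaks. Of the 7 shared regions of all members, 4 were in its window. The region 36.0 kb upstream of the TSS (chr6:7505320-7506359, intergenic) had percentiles of 58.5, 86.8, 86.5 and 90.1, and the one 61.5 kb upstream (chr6:7480036-7480715, intergenic) had 43.5, 93.9, 80.7 and 76.6. Both were thus among the stronger peaks in all libraries except MCF10A replicate 1. The region 48.6 kb downstream (chr6:7590125-7591251), at 21.2, 62.0, 65.0 and 54.5, was the promoter of the neighbouring gene SNRNP48. The last, 99.5 kb downstream (chr6:7641038-7641784), had 10.1, 54.9, 4.21 and 66.3. In none of these did the cell types separate. Of the other distal regions, 3 were in G12V replicate 2 alone and 1 in MCF10A replicate 2 alone. The latter lay in an intron 20.3 kb downstream (chr6:7561904-7562415), at percentile 48.9. The DSP promoter had a peak in the replicate 2 libraries alone, at percentile 74.8 and 847 bp wide in MCF10A and at 91.3 and 2297 bp wide in G12V.

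JUP, or plakoglobin, the armadillo protein that binds the cadherin tails, took a lower share of peaks in both G12V libraries. JUP (ENSG00000173801; chr17:39910856-39943183, minus strand) had 2, 3, 0 and 3 peaks, or 0.155, 0.087, 0 and 0.0643 per 1000 (difference -0.089, exact permutation p = 0.333). Some of these peaks lay at starts of other genes. In G12V replicate 2 the peaks 98.1 kb downstream and 25.3 kb upstream were 254 and 109 bp from the TSS of EIF1 and P3H4. In MCF10A replicate 2 the peak 97.3 kb downstream was 493 bp from the TSS of EIF1. Its promoter region (chr17:39942869-39943542) had percentiles of 5.6 and 76.2 in the MCF10A libraries, no peak in G12V replicate 1 and 42.2 in G12V replicate 2. A second promoter peak, at chr17:39942409-39942713, was found in MCF10A replicate 1 alone, at percentile 18. G12V replicate 1 had 0 peaks in the whole window, as it did at 18q12.

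PKP1, the plakophilin that binds desmoplakin and enlarges desmosomes, held 3 of the 5 lost regions. PKP1 (ENSG00000081277; chr1:201252580-201302121, plus strand) had 13 regions and 5, 9, 2 and 6 peaks, or 0.388, 0.261, 0.142 and 0.129 per 1000 (difference -0.189, exact permutation p = 0.333). At least 3 lost regions were found at 36 of 20098 coding genes, or 0.179%. That share takes no account of the number of regions per gene. With 13 regions PKP1 stood at percentile 94.3 of coding genes, for which the median was 6. PKP1 was singled out after its values were seen, and its lost regions numbered 1 with the better-scoring 50% of each list or with lists of equal length, and 7 without MCF10A replicate 1. The strongest lost region, of 2011 bp, lay in an intron 28.1 kb downstream of the TSS (chr1:201279774-201281784) and had percentiles of 62.5 and 72.2 in MCF10A. The intronic region 12.7 kb downstream (chr1:201264950-201265704) had 25.6 and 37.0, and the intergenic one 69.9 kb downstream (chr1:201322331-201322868), 24.3 kb from the TSS of the troponin gene TNNT2, had 20.6 and 1.49. The last pair were thus in the weaker part of their lists.

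Upstream of PKP1, 7 regions were found, of which 2 were shared, 3 were in G12V replicate 2 alone and 2 in MCF10A replicate 2 alone. The shared one 8.22 kb upstream (chr1:201243671-201245160) had percentiles of 78.0, 75.4, 56.2 and 92.3 and peak widths of 608, 735, 605 and 1490 bp, and the shared one 23.4 kb upstream (chr1:201228541-201229864) had 0.935, 39.2, 22.3 and 65.4. Neither separated the cell types. Between the TSS and the 3′ end of PKP1, the MCF10A libraries had peaks and the G12V libraries had none. The PKP1 promoter had no peak in any library.

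**Figure D2:**
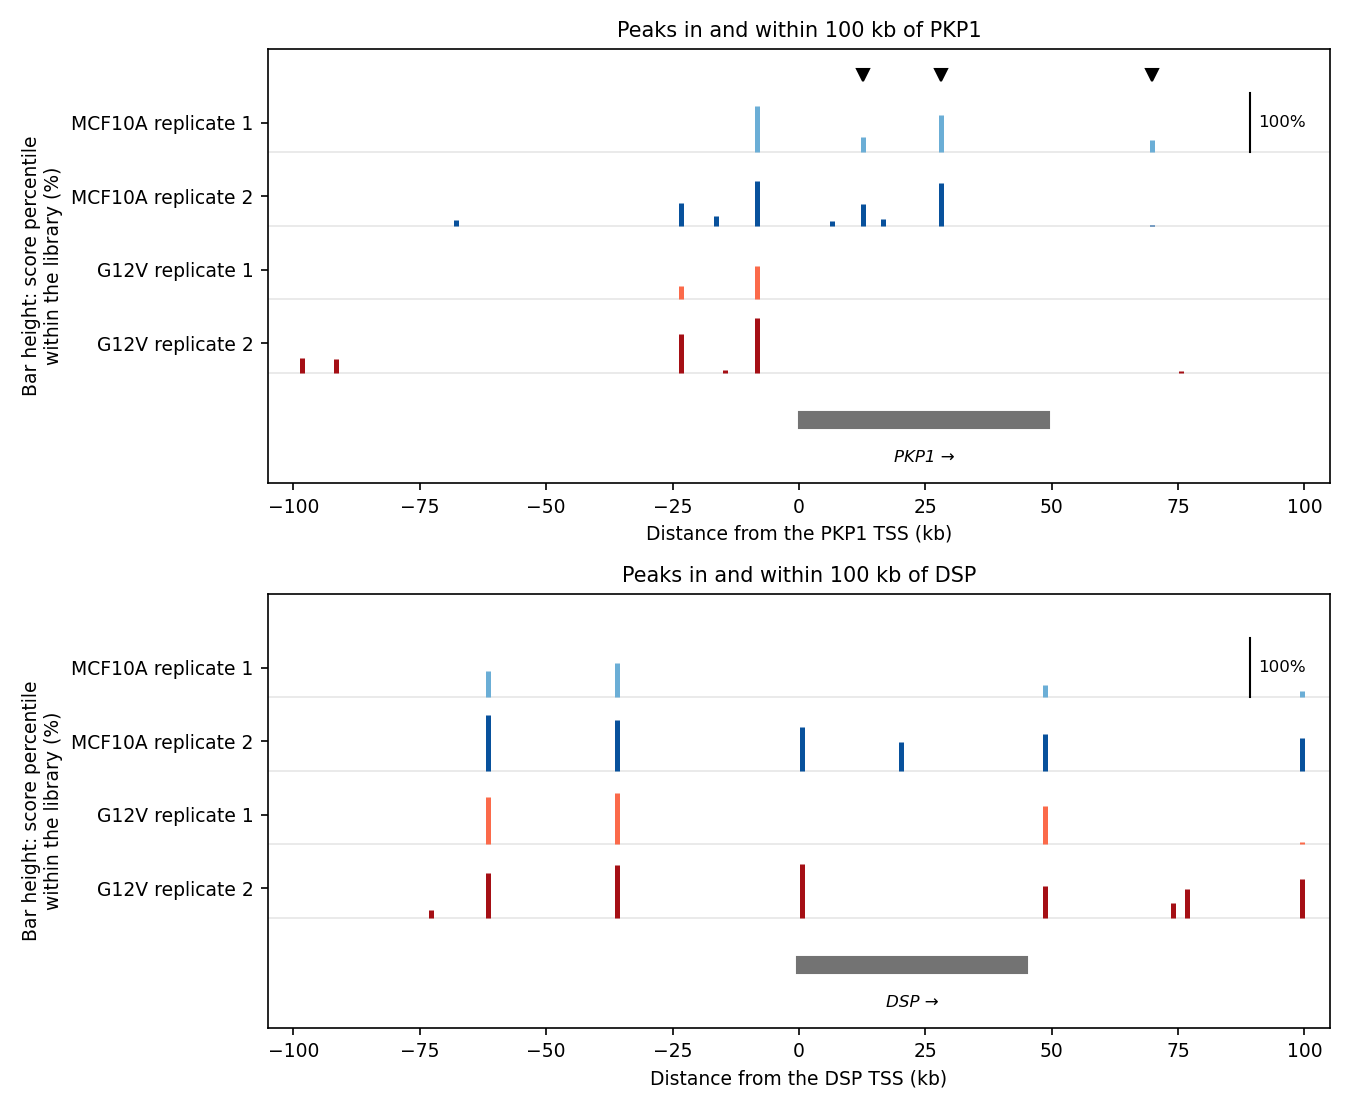
Peaks in and within 100 kb of PKP1 (upper panel) and DSP (lower panel) by distance from the TSS in kb, with a row for each library; bar height is the score percentile within that library, triangles mark lost regions and grey boxes the genes. At PKP1 the 3 lost regions lie downstream of the TSS and the 2 shared ones upstream, whereas DSP has 4 shared regions and 0 lost ones.

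PKP2, the plakophilin of simple epithelia and heart, had the only member promoter with a peak in every library. PKP2 (ENSG00000057294; chr12:32943679-33049732, minus strand) had 2, 5, 1 and 6 peaks. At its promoter the percentiles were 90.1 and 85.9 in MCF10A and 9.18 and 71.3 in G12V, with scores of 113.75, 156.15, 45.68 and 112.16. Both MCF10A percentiles lay above both G12V percentiles. This order was seen in 1 of the 7 shared member regions and in 6.92% of all shared regions, and the reverse order in 0 of 7 against 18.6%. A region 20.6 kb upstream (chr12:33070014-33070690) had percentiles of 1.4, 48.7 and 56.5 and was missing in G12V replicate 1.

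PKP3, the plakophilin found in nearly all desmosomes of stratified and many of simple epithelia, had a single lost region. PKP3 (ENSG00000184363; chr11:392614-404908, plus strand) had 2, 3, 1 and 2 peaks, or 0.155, 0.087, 0.0712 and 0.0429 per 1000 (difference -0.0641, exact permutation p = 0.333). The lost region lay 29.4 kb upstream (chr11:364363-365114, intergenic), at percentiles 2.23 and 28.0, and was closer to the TSS of B4GALNT4, at 4.72 kb. The PKP3 promoter had a peak in MCF10A replicate 2 alone, at percentile 46.9.

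The desmosomal cadherin locus of 18q12 had no peak in G12V replicate 1. None of its 18 regions was shared, against 8.36% of all regions. In the order of the chromosome it holds DSC3 (ENSG00000134762; chr18:28569331-28622781, minus strand), DSC2 (ENSG00000134755; chr18:28638806-28682485, minus strand), DSG1 (ENSG00000134760; chr18:28898123-28939209), DSG3 (ENSG00000134757; chr18:29027704-29058665) and DSG2 (ENSG00000046604; chr18:29078140-29128971), the desmogleins on the plus strand. The windows of these genes had 3, 13, 0 and 10 peaks, or 0.233, 0.377, 0 and 0.214 per 1000. The MCF10A shares were above both G12V shares, the G12V mean being 0.107 ± 0.152 and the MCF10A mean 0.305 ± 0.102 (SD, n = 2 each; difference -0.198, exact two-sided permutation p = 0.333). Because the short G12V list had none, the G12V spread was larger than its mean.

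The shares that did not overlap were those of the desmocollins. DSC2 had 2, 5, 0 and 1 peaks and DSC3 1, 6, 0 and 2, which per 1000 gave differences of -0.139 and -0.104 (exact permutation p = 0.333 for each). DSG2 and DSG3 each had 0, 6, 0 and 6 peaks, with overlapping shares (exact permutation p = 1.0), and DSG1, the desmoglein of differentiated epidermis, had 1, 1, 0 and 2 (p = 0.667 by the same exact test). Whether the desmocollin and desmoglein sides differed from each other was not tested.

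Of the 18 regions in the locus, 1 was lost (5.56%), 7 were in the replicate 2 libraries only (38.9%) and 10 were in a single library (55.6%). Over all regions 16.3% were in the replicate 2 libraries only and 56.4% in a single library. On chromosome 18 as a whole 33 of 1246 regions were lost (2.65%) and 22 were gained. Lost regions were thus the more frequent on this chromosome, whereas over all regions 2.14% were lost and 3.2% gained. Whether the locus differed from the rest of its chromosome was not tested. The lost region (chr18:28644063-28644523) lay in an exon annotated as UTR at the 3′ side of DSC2, 21.7 kb upstream of the DSC3 TSS, with percentiles of 46.8 and 37.0 in MCF10A. Among regions found in the replicate 2 libraries alone, the DSG3 intron region chr18:29033903-29034669 stood at 43.9 in MCF10A and 88.9 in G12V, and the intergenic chr18:28821908-28822346 at 5.26 and 63.8. The DSC3 intron region chr18:28591366-28591858 had 22.5 and 55.1, and the DSG2 intron region chr18:29092515-29093011 had 31.9 and 63.1. The order was the opposite in the other 3 regions: 52.3 and 25.7 at chr18:28567407-28567831 past the end of DSC3, 58.6 and 17.9 at chr18:29067444-29068158 between DSG3 and DSG2, and 75.8 and 64.3 at the DSG2 promoter (chr18:29077810-29078744). The regions that the deeper lists had in common were thus stronger in either cell type in turn.

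**Figure D3:**
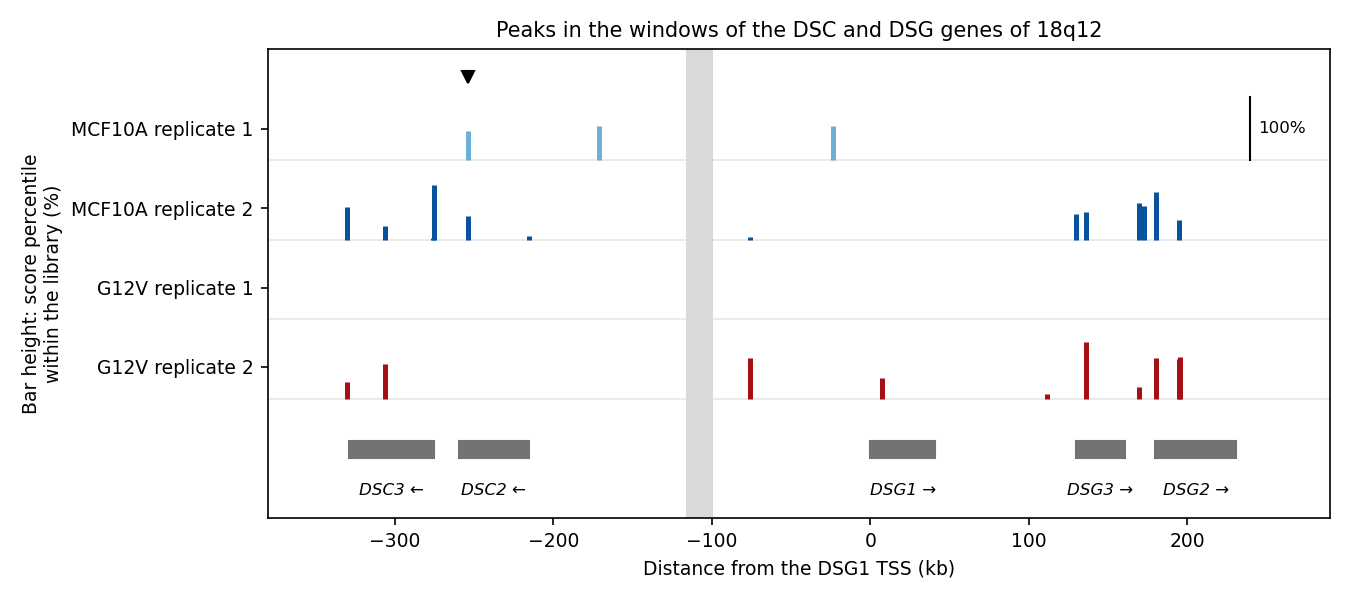
Peaks in the windows of the desmosomal cadherin genes of 18q12 by distance from the DSG1 TSS in kb, with a row for each library; bar height is the score percentile within that library, the triangle marks the lost region, grey boxes are genes with arrows for their direction, and the grey band lies outside every window. G12V replicate 1 has 0 peaks, and the tallest MCF10A replicate 2 bar on the desmocollin side, at the DSC3 promoter (86.7), has no G12V counterpart.

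Between the DSC2 and DSG1 windows a gap of 15738 bp belongs to no member. It held a region with a peak in every library (chr18:28786798-28787432), at percentiles 17.7, 93.9, 67.1 and 95.3. The stretch was therefore not without accessible chromatin in G12V replicate 1, but this site lay outside the member windows.

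At the promoters, 8 of 10 members had a peak in MCF10A replicate 2, and for 4 of them no other library had one. A promoter peak was present in an MCF10A library and in no G12V library for DSC2, DSC3, DSG3 and PKP3, against 5.24% of coding promoters, and in a G12V library alone for 0 members, against 7.25%. In each of the 4 the peak came from MCF10A replicate 2 alone, so none was called in both MCF10A libraries, and without that library the count is 0. The percentiles were 6.14 at DSC2, 86.7 at DSC3, 40.9 at DSG3 and 46.9 at PKP3. Only 1 of 10 members, PKP2, had a promoter peak in every library, against 15% of coding promoters, and 2, PKP1 and DSG1, had none, against 46.9%. By library, 2, 8, 1 and 4 members had a promoter peak. MCF10A replicate 2 had one at 44.5% of coding promoters and G12V replicate 2 at 47.0%, so the longer G12V list reached slightly more promoters in general and fewer of the members.

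The DSC3 promoter peak (chr18:28622193-28623271, score 161.04) was the strongest of the 4, and it was singled out after its value was seen. Of 8942 coding promoters with a peak in MCF10A replicate 2, 941 (10.5%) had none in either G12V library. Of the 2994 whose percentile was at or above that of DSC3, 16 (0.534%) had none, DSC3 included. MCF10A replicate 1 had no peak at the DSC3 promoter either, so the difference rests on a single library. DSC3 is the desmocollin of basal cells in stratified epithelia.

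**Figure D4:**
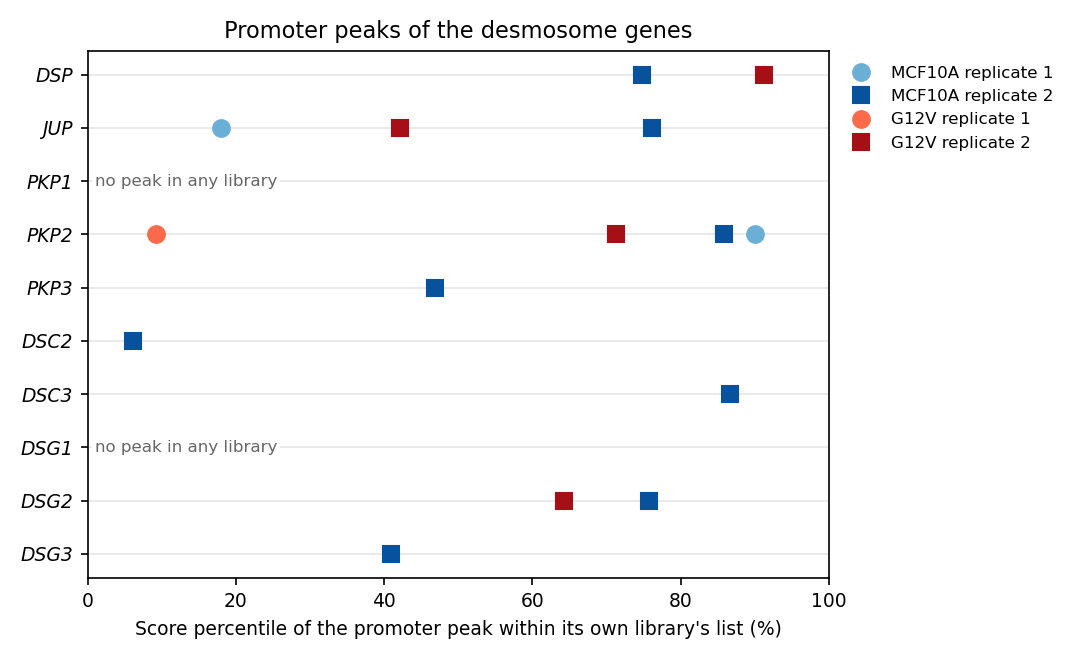
Score percentile within its own library (x axis, %) of the promoter peak of each desmosome gene (rows), with a point for each library that has one. MCF10A replicate 2 has a point at 8 genes and G12V replicate 2 at 4, and DSC2, DSC3, DSG3 and PKP3 have no G12V point.

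The peaks found at these genes in G12V did not stand low in their lists. Over the regions of all members the median percentile was 23.4 in MCF10A replicate 1 (18 regions), 40.9 in MCF10A replicate 2 (39), 54.7 in G12V replicate 1 (8) and 55.1 in G12V replicate 2 (35). The G12V peaks at these genes were thus fewer for the length of the list and stood higher in it, and only the peaks that passed the threshold enter this median. In G12V replicate 1, 4 of the 8 regions lay in the DSP window, the SNRNP48 promoter among them, so that median rests largely on the window of a single gene. The lost regions ranged from percentile 1.49 to 72.2 in MCF10A, and the shared ones reached 93.9. All lost regions but the PKP1 one 28.1 kb downstream of the TSS lay in the weaker part of the lists, at 46.8 or lower.

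**Figure D5:**
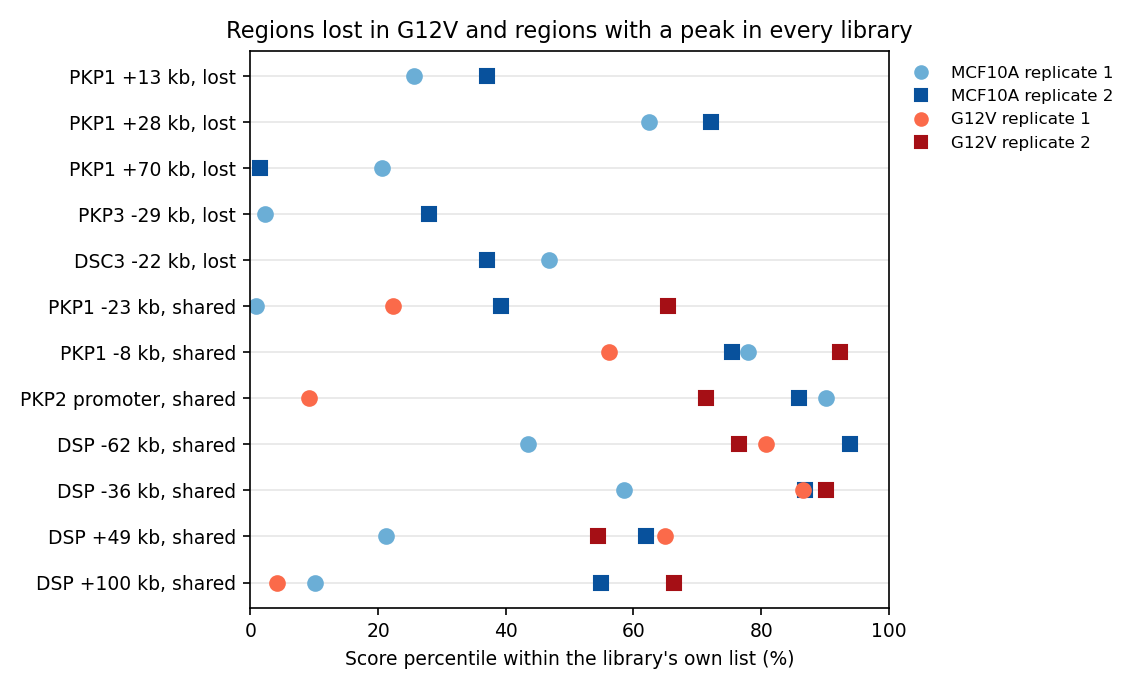
Score percentile within its own library (x axis, %) for the 5 lost and the 7 shared regions of the desmosome genes (rows, named by nearest member and distance from its TSS), with a point for each library that has a peak. Lost regions carry MCF10A points only, between 1.49 and 72.2, and among shared regions the cell types separate at the PKP2 promoter alone, where both MCF10A points lie above both G12V points.

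Motif matches in the member regions were few, and their shares stood on either side of those over all regions. In 200 bp windows at the midpoint of the strongest peak of each region, read on both strands, the AP-1 letters TGANTCA occurred in 12 of 59 member regions (20.3%) and in 26.4% of all regions. Among the lost regions they occurred in 2 of 5, the PKP1 intron 12.7 kb downstream of the TSS and the DSC2 exon. The TEAD letters GGAATG occurred in 3 member regions (5.08%, against 14.2% of all) and the grainyhead letters AACCNGTT in 1 (1.69%, against 1.18%). Grainyhead-like factors are regulators of epithelial junction genes. The p53 family element, of 20 bases with up to 3 mismatches, was matched in 2 member regions (3.39%, against 1.7%), both shared regions of DSP, and the CTCF element, of 14 bases with up to 1 mismatch, in 4 (6.78%, against 8.69%). None of the last 4 motifs was matched in the 200 bp window of a lost region. Over the whole length of the lost regions, for which no share of all regions was computed, the AP-1 letters occurred in 3 of 5, the PKP3 region included, and the PKP1 region of 2011 bp held 4 TEAD matches and 1 p53 family match. The DSP window 36.0 kb upstream of the TSS held AP-1, TEAD, grainyhead and p53 family matches together, with the AP-1 and TEAD letters overlapping and the grainyhead letters inside the p53 family match. These are matches of letters and not shown to be bound.

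In the 200 bp before the gene start, the TEAD letters were matched at DSP alone, at 2 positions, and the other motifs at no member; among coding genes TEAD was matched in 8.66%, AP-1 in 4.39%, grainyhead in 1.2%, p53 family in 0.721% and CTCF in 11.2%. The run of 20 bases shared by DSG1 and DSG3 began at positions -120 and -78 relative to their gene starts and was the longest among the 10 pairs of 18q12 genes, where the next was 9 bases and the median 7.5. The DSG1 promoter had no peak in any library, and the DSG3 promoter had one in MCF10A replicate 2 alone. GC content was 54.0% at the median of the 59 member windows, 58.5% over the 5 lost ones and 48.0% over all regions.

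Further lists of junction genes were set beside the members. Around 7 desmosome-associated genes (DSC1, DSG4, PKP4, PERP, PPL, EVPL and CDSN) 49 regions were found, of which 2 were gained, 1 each at PKP4 and EVPL, and 1 was lost, the region already given for DSC2 and DSC3, which is also within reach of DSC1. Their share of peaks was 1.16, 0.841, 0.855 and 0.621 per 1000, with overlapping cell types (difference -0.265, exact permutation p = 0.667). The promoter of PKP4, a plakophilin relative of many cell junctions, had a peak in every library at percentiles 80.6, 94.2, 97.8 and 99.2. PERP, a membrane protein of desmosomes and a p53 target, had promoter peaks at 57.2, 77.8 and 68.1 in all libraries except MCF10A replicate 1. The promoter of PPL (periplakin) had a peak in MCF10A replicate 1 alone, at 8.75.

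Around 10 adherens junction genes, the cadherin-catenin and nectin-afadin junctions that tie to actin, 78 regions were found, with 0 gained, 5 lost and 7 shared. The lost regions were at CTNND1 (2), CTNNB1, NECTIN1 and NECTIN4 (1 each). Their share was 1.47, 1.74, 1.35 and 1.14 per 1000 (difference -0.363, exact two-sided permutation p = 0.333). The counts of gained, lost and shared regions equalled those of the desmosome genes, though over 78 regions rather than 59. Both G12V shares again lay below both MCF10A shares, but the order of the replicates within each cell type was the reverse. A promoter peak in an MCF10A library and in no G12V library was seen at 0 of these genes, against 4 of the 10 desmosome genes, 2 of the 6 epithelial markers (KRT8 and EPCAM) and 1 of the associated genes (PPL); differences between the lists were not tested. The mesenchymal gene VIM had promoter peaks at 84.0, 69.2 and 84.5 in MCF10A replicate 2 and the G12V libraries, and ZEB1 at 29.5 in MCF10A replicate 2 alone.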

How the data were processed

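ATAC-seq had been done on 2 replicates each of MCF10A and G12V cells. Per the study's methods, alignment by the authors used bowtie (0.12.9) with unique reads only, read starts were centred on the Tn5 binding event, and MACS (1.4.2; tag size 51, shift size 75, local window 25000 bp, p threshold 1e-04) called the peaks. The deposited lists, 1 per library, give each peak a position in hg19 and a MACS score, 10 times the negative log10 of its p-value; they carry no read numbers. In a short list a locus may be missing only because it fell under that threshold, which bounds every comparison.

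Here peaks on the 22 autosomes and X were used, peaks that shared 1 bp or more were joined into regions, and scores were turned into percentiles within a list. The TSS was that of the Ensembl canonical transcript (GENCODE 44 lifted to GRCh37). The regions named by rule were all lost regions, member promoters, the 5 shared regions with the highest lowest percentile and 18q12 regions with a peak in at least 2 libraries; the other shared regions and 1 region of PKP2 were named after their values were seen. Shares of peaks per library were compared by exact two-sided permutation tests. The members, gene lists and motifs were chosen with earlier results of these data known. The sequence of 1 stretch is not reported here. Python 3.11.15 with numpy 2.4.6, pandas 2.3.3, scipy 1.17.1, pysam 0.24.0 and matplotlib 3.10.9 was used. Simulated data with known answers were used to test the merging, the classes and the search for the AP-1, TEAD and grainyhead letters. The p53 family and CTCF searches were not tested in this way. Alternatives were stronger or equal-sized lists, other windows, overlaps and TSS sets, each library left out and the replicate number as a block.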

Additional observations from a re-analysis of the deposited data

How the results depend on the processing

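The lower share of peaks at desmosome genes in G12V kept its direction in every alternative run. The difference ranged from -0.138 peaks per 1000 with the better-scoring 50% of each list to -0.821 with windows of 200 kb, was -0.621 with 12888 best peaks per library, and lay between -0.461 and -0.726 when each library was left out. For 18q12 it lay between -0.0907 (without G12V replicate 1) and -0.305 (without G12V replicate 2), and was -0.205 with the gap between windows filled, an alternative chosen after seeing the data. With the replicate number as a block, the replicate block p was 0.5 for both, the smallest that 2 pairs allow, with pair differences of -0.827 and -0.36 for all members and -0.233 and -0.163 for 18q12. The replicate 2 lists were the longer ones in both cell types, and nothing else shows that equal numbers mark a shared day or batch.

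The counts of regions depended more on the lists. Lost member regions numbered 1 with the better 50%, 2 with equal lists (the PKP1 region 28.1 kb downstream and the JUP promoter, where 5.19% of all regions were lost and 5.24% gained), 23 when either library of a cell type sufficed, and 11 and 19 in replicate pairs 1 and 2 alone under the replicate block. Leaving out a library gave 5 to 19 (19 without MCF10A replicate 1, 9 without MCF10A replicate 2). Gained regions numbered 16 when either library sufficed, 1 and 15 in pairs 1 and 2 alone, and 0 to 15 with a library left out (15 without G12V replicate 1, 1 without G12V replicate 2). Lost regions outnumbered gained ones in both pairs, and gained outnumbered lost without G12V replicate 1. For the pairs, the better 50% and the lists with a library left out, no share over all regions was computed. Whether the desmosome genes departed from all regions there is thus not known. Lost PKP1 regions numbered 1 with the better 50% and with equal lists, and 7 without MCF10A replicate 1.

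Promoters with a peak in every library numbered 0 with the better 50% and with equal lists, and 1 to 2 with a library left out (2 without G12V replicate 1). Promoters with a peak in MCF10A only, a pattern noticed in the data, numbered 2 with the better 50%, 0 without MCF10A replicate 2 and 7 without G12V replicate 2. Shared regions higher in G12V numbered 2 with 200 kb windows, 1 with percentiles taken among shared regions, and 0 to 5 with a library left out (5 without G12V replicate 1, 4 without MCF10A replicate 2, 1 without G12V replicate 2). Those higher in MCF10A numbered 0 with the better 50% and with equal lists, and 1 to 3 with a library left out (3 without G12V replicate 2, 2 without MCF10A replicate 1). No share over all promoters or all shared regions was computed with a library left out or with the shorter lists. The cause of these shifts was not tested.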
